A study of Mus musculus with 2 samples.

Results

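The genes described here form the branch point of arginine use in macrophages, together with the enzymes of polyamine turnover and the enzyme that makes itaconate. They are 10 listed genes: Arg1, Arg2, Nos2, Ass1, Asl, Odc1, Sat1, Srm, Acod1 and Gch1. All probe sets that the platform annotation assigned to 1 of these genes alone were taken, which gave 14 probe sets, out of 18193 genes named in this way. Of the 10 genes, 8 had a signal above background on both arrays. The probe sets that name Nos2 or Ass1 alone were not above background on either array. A further probe set, shared by Ass1 and Gm5424 and not counted here, was above it on both (1221 in resident and 125 in elicited cells). The data are Affymetrix 3' expression arrays of peritoneal macrophages from C57BL/6J mice 8 weeks old, with 1 array for each of 2 groups. The resident array carried RNA from untreated mice. The elicited array carried RNA from mice given 1 mL of 3% thioglycollate, a sterile irritant broth that draws leukocytes into the cavity, 3 days before collection. In both groups cells that had not adhered within 2 h were washed off, although the series design mentions culture overnight, so how long the cells were cultured is unclear. How many mice gave RNA to an array is not stated in the sources used here.

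Arginine is the shared substrate of arginases and nitric oxide synthases. Arginase splits it into urea and ornithine, and nitric oxide synthase turns it into nitric oxide and citrulline. Ornithine feeds the polyamines putrescine, spermidine and spermine, while citrulline can be rebuilt into arginine. Itaconate is made from a citric acid cycle intermediate in activated macrophages, where it restrains succinate dehydrogenase and bacterial growth. High arginase 1 is widely used as a mark of alternatively activated macrophages, and high inducible nitric oxide synthase and itaconate synthesis as marks of classical activation.

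The authors deposited 1 linear MAS5 signal intensity for every probe set. Background was set at a signal of 82.2, the 95th percentile of 126 probe sets for olfactory, vomeronasal and taste receptors and hair keratin partners, families taken here as silent in macrophages. This floor decides whether a gene counts as detected. Ratios are elicited over resident signal, on the log2 scale unless given as a fold. Each group has 1 array, hence no replicate error and no test, and 2-fold serves as the mark for a sizeable difference. Probe sets that target 1 gene give a partial measure of error: their log2 ratios had an SD of 0.48 over 4465 genes. This SD leaves out variation among mice and cultures, and precision is limited by having 2 arrays in all.

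The mitochondrial arginase gene Arg2 and the itaconate synthase gene Acod1 were more than 10-fold lower on the elicited array. The polyamine synthesis gene Odc1 was 2.31-fold higher. The other 5 measured members, Arg1, Asl, Srm, Sat1 and Gch1, had ratios within 2-fold. Of the 8 detected members, 2 were thus lower by 2-fold or more, against 11.8% of the 11499 detected genes, and 1 was higher by 2-fold or more, against 8.04%. The log2 ratio was above 0 in 6 of the 8, against 48.1% of all genes. These 6 include Gch1, whose 2 probe sets disagreed in direction (0.12 and -1.25). The members' median log2 ratio was 0.61, and that of all genes was -0.03. With 8 genes, 1 more or fewer would change such shares widely, so they describe these members and nothing beyond them.

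**Figure D1:**
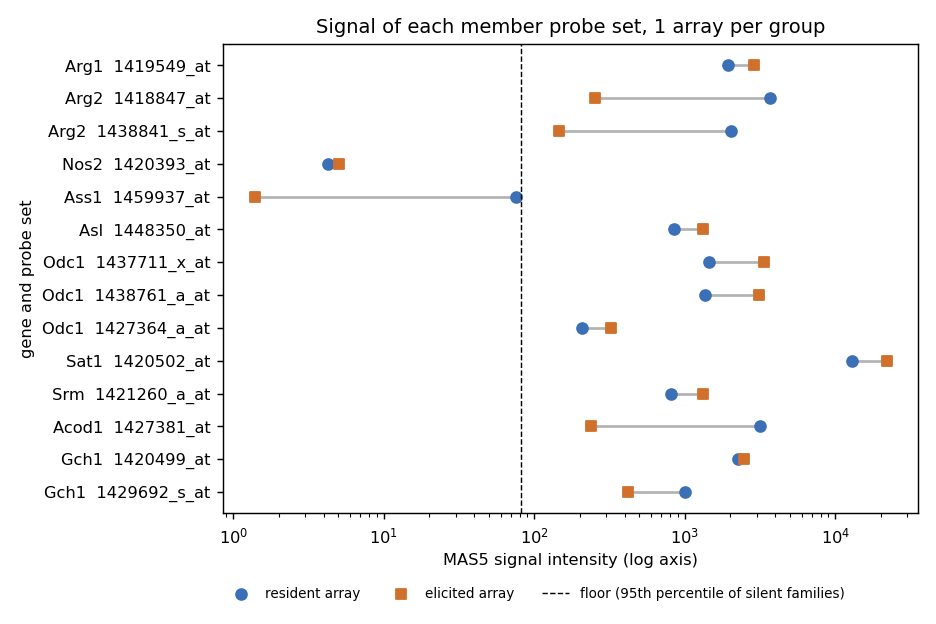
Signal intensity of each of the 14 member probe sets on the resident array (circles) and the elicited array (squares), on a log axis, with 1 array per group and no error bars. The dashed line is the floor of 82.2. Arg2 and Acod1 stand far apart between the arrays, and the probe sets that name Nos2 or Ass1 alone lie left of the floor on both.

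The scaling between arrays sets the reading of the smaller ratios. The authors' values have the same trimmed mean on both arrays, yet the spiked hybridisation controls read 1.29-fold higher with elicited RNA, in 9 of 9 probe sets. The poly-A controls read 1.31-fold higher (12 of 12) and the 18S ribosomal RNA controls 1.24-fold higher (3 of 3). Over all detected genes the median log2 ratio was 0.25 when both arrays were given equal medians, 0.16 with quantile normalization, 0.07 with a loess trend taken out and -0.36 when the hybridisation controls were made equal. Among genes that differed 2-fold or more, the higher ones made up 40.5% in the deposited values, and 65.9%, 57.9%, 50.1% and 18.2% under those 4 scalings in the same order. Arg2 and Acod1 were lower, and Arg1, Asl, Odc1, Sat1 and Srm higher, under all 5 scalings. Gch1 was higher under 4 and lower, at -0.25, on the hybridisation controls. Ratios below are on the deposited scale.

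**Figure D2:**
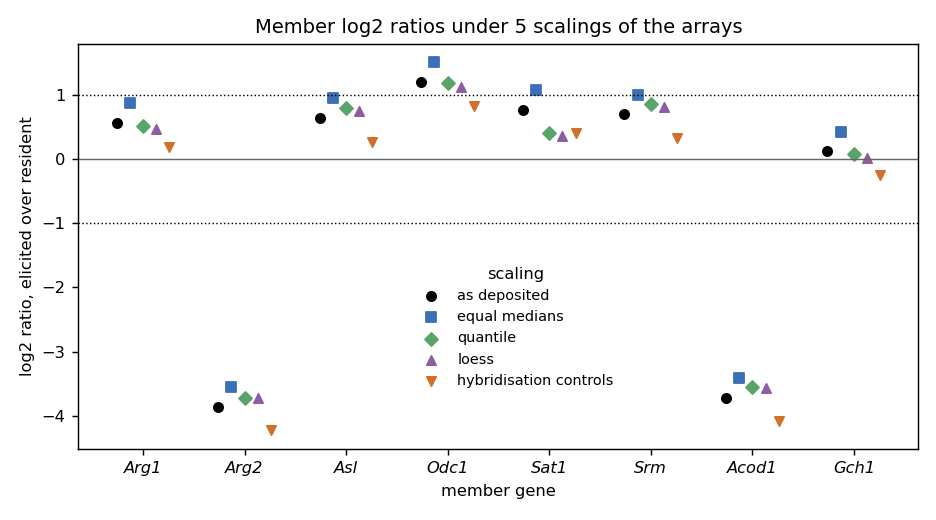
Log2 ratio (elicited over resident) of the 8 detected members, under the deposited scale and 4 other scalings of the 2 arrays. Dotted lines mark 2-fold. Arg2 stayed between -4.23 and -3.55 and Acod1 between -4.09 and -3.41, whereas Odc1 was within 2-fold on the hybridisation controls (0.84) and Sat1 and Srm passed 2-fold with equal medians (1.08 and 1.01).

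The arrays carried the markers of their label. All 9 macrophage markers with a probe set were detected on both arrays, among them Csf1r (36845 in resident and 32074 in elicited cells), the receptor for the growth factor CSF1. The 3 probe sets of Csf1r had log2 ratios from -1.76 to -0.20. Of the 9 markers, Fcgr1 was higher by 2-fold or more (1344 and 3430). Itgam (9059 and 3027) and Cd14 (17665 and 6481) were lower to that extent. Over all detected genes, 8.04% were higher and 11.8% lower by 2-fold or more. Markers of other cells also differed between the arrays. B cell markers were lower by 2-fold or more in elicited cells for 7 of 9, and their summed signal was 25626 in resident and 4961 in elicited cells. The other 2 had log2 ratios above 0: Cd22 at 0.85 (2269 and 4078) and Pax5 at 0.18 (141 and 159). Cd22 alone gave 4078 of the elicited sum of 4961. Of 13 mesothelial and fibroblast markers, 11 were detected and 9 were higher by 2-fold or more, with summed signals of 807 and 16598. Of 11 neutrophil markers, 5 were detected and 3 were lower by 2-fold or more, with summed signals of 12741 and 8619. S100a9, Mpo, Elane, Ltf, Ngp and Cxcr2 were undetected on both arrays. The detected ones were Mmp8 (2817 and 1259), Mmp9 (558 and 171), Csf3r (5412 and 2270), Camp (112 in resident cells, undetected in elicited cells) and S100a8 (3663 and 4675). Of 9 dendritic cell markers, 6 were detected and 4 were lower by 2-fold or more, with summed signals over all 9 of 3120 and 479. Of 9 T and NK cell markers, 5 were detected, all in resident cells only, and 3 were lower by 2-fold or more. Their summed signals over all 9 were 1392 and 219. No gene of these 2 lists was detected on both arrays, so their ratios are bounds set by the floor. Of 8 detected eosinophil and mast cell markers, 5 were lower by 2-fold or more: Cpa3, Cma1, Mcpt4, Tpsb2 and Kit, all undetected in elicited cells. Siglecf was higher (322 and 1014). Prg2, Epx, Ccr3 and Ms4a2 were undetected on both arrays. The summed signals of the whole list were 3178 and 1289. None of 5 measured hepatocyte and urea cycle genes, including Alb, Cps1 and Otc, was detected. The part of these other cells in the ratios of the members was not tested. Fewer cells of a type and less RNA per cell cannot be told apart in such bulk samples.

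The 2 arginase genes differed sharply from each other. Arg1 encodes the cytosolic arginase, best known from the urea cycle in liver and from macrophages exposed to interleukin-4. Its signal was 1932 in resident and 2862 in elicited cells, a 1.48-fold difference (log2 ratio 0.57) that is within the threshold. Arg1 was thus present on both arrays, including that of untreated mice. Of the 11499 genes, 2182 (19.0%) had a higher ratio than Arg1.

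Arg2 encodes the mitochondrial arginase. Its brighter probe set read 3686 in resident and 254 in elicited cells, 14.5-fold lower (log2 ratio -3.86). The second had signals of 2034 and 146, 13.9-fold lower (log2 ratio -3.80). The 2 probe sets thus differed by 0.06 on the log2 scale. The second was below the 99th percentile of the silent families (174) on the elicited array, so against that stricter floor its log2 ratio is a bound of -3.54. Only 48 of the 11499 genes (0.417%) had a lower ratio than Arg2.

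The balance between both arginase transcripts does not depend on a constant factor per array, since such a factor cancels. Scalings that depend on signal do not cancel. On the deposited scale the log2 ratio of Arg1 exceeded that of Arg2 by 4.43. The signal of Arg1 relative to that of Arg2 was thus 21.5-fold higher on the elicited array. Over all the processing alternatives this difference in log2 ratio lay between 4.19 and 4.43. This shows an unequal difference between the arrays for the 2 genes. It does not say how much protein or enzyme activity either gave.

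Nos2 encodes the inducible nitric oxide synthase, which competes with arginase for arginine. Its 1 probe set had signals of 4.27 in resident and 5.05 in elicited cells. Both lie far below the floor, so no ratio is given and no level can be stated beyond being under 82.2. Gch1 encodes GTP cyclohydrolase, which makes the first intermediate of tetrahydrobiopterin, the cofactor of nitric oxide synthases. Its 2 probe sets disagreed. The brighter had signals of 2270 and 2474 (log2 ratio 0.12), and the dimmer had 997 and 419 (log2 ratio -1.25, 2.38-fold lower). The gap of 1.38 between them is wider than that in Arg2 (0.06) or Odc1 (0.55), and no direction can be given for Gch1. The median over both was -0.56.

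Arginine can be rebuilt from citrulline by argininosuccinate synthase, encoded by Ass1, and argininosuccinate lyase, encoded by Asl. The probe set that names Ass1 alone had signals of 75.9 in resident and 1.39 in elicited cells, neither above the floor. A further probe set lists Ass1 together with Gm5424 and had signals of 1221 and 125 (9.77-fold lower). It cannot be assigned to 1 of the 2 genes and is not counted with the members. Asl had signals of 852 and 1331, 1.56-fold higher on the elicited array (log2 ratio 0.64). Asl therefore lay on the other side of 0 from Arg2, with a difference of 4.50 between their log2 ratios.

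Odc1 encodes ornithine decarboxylase, the first and usually limiting step of polyamine synthesis. The brightest of its 3 probe sets had signals of 1451 in resident and 3350 in elicited cells (2.31-fold higher, log2 ratio 1.21), and the next had 1358 and 3122 (2.30-fold, 1.20). The dimmest had 206 and 325 (1.58-fold, 0.66). All 3 were higher on the elicited array, and 2 of the 3 passed 2-fold. Of the 11499 genes, 652 (5.67%) had a higher ratio than the brightest probe set.

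The next 2 enzymes of the branch differed less. Srm encodes spermidine synthase, and its signals were 808 and 1315 (1.63-fold higher, log2 ratio 0.70). Sat1 encodes the acetyltransferase that marks spermidine and spermine for export or breakdown, and its signals were 12835 and 21999 (1.71-fold higher, log2 ratio 0.78). All 3 polyamine members were thus higher in elicited cells, and Srm and Sat1 stayed within 2-fold on the deposited scale. Sat1 lies in decile 10, the brightest, of genes detected in both groups, whose median log2 ratio was itself 0.41, so it exceeded genes of like signal by 0.37. The same excess was 1.13 for Odc1 and 0.80 for Srm.

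Acod1 encodes aconitate decarboxylase, which makes itaconate in mitochondria. Its signal was 3143 in resident and 238 in elicited cells, 13.2-fold lower (log2 ratio -3.72). Only 54 of the 11499 genes (0.469%) had a lower ratio, which places Acod1 a few ranks from Arg2, with which it shares the mitochondrial matrix as the site of its protein. Both had elicited signals above the stricter floor of 174 in their brighter or only probe set. Relative to the median of genes in the same decile of signal, the log2 ratio stood at -3.62 for Acod1 and -3.76 for Arg2. The log2 ratio of Odc1 exceeded that of Acod1 by 4.93.

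**Figure D3:**
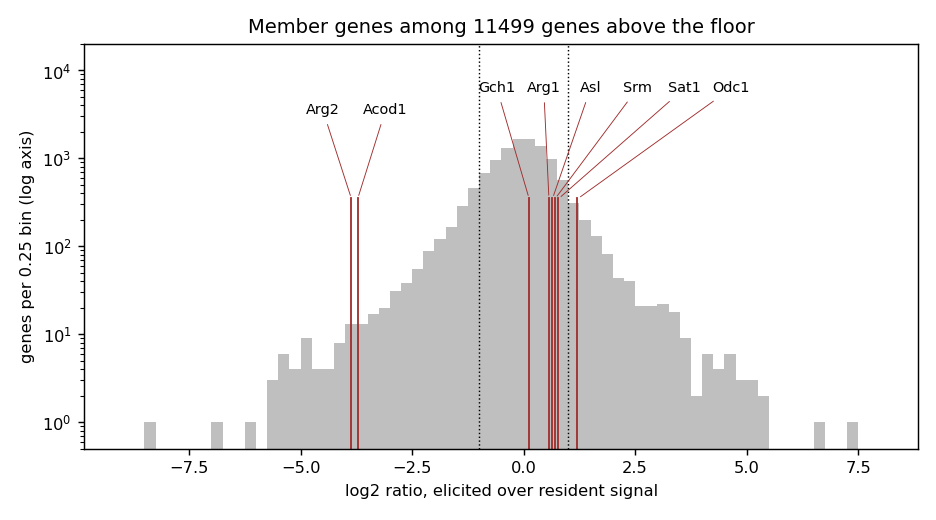
Histogram of the log2 ratio (elicited over resident) of 11499 detected genes, in bins of 0.25 with a log count axis, and the 8 detected members as red lines. Dotted lines mark 2-fold. Arg2 (-3.86) and Acod1 (-3.72) lie in the lower tail, and the other 6 members lie between 0.12 and 1.21.

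Promoter sequences were held for 5 of the 10 members in the RefSeq table for GRCm38.p6: Acod1, Ass1, Gch1, Odc1 and Sat1. Arg1, Arg2, Asl, Nos2 and Srm had no entry. The stretches run from 250 bases before to 50 bases after the transcript start. Those of Acod1 and Odc1 are shown. Of the 5 genes Ass1 had no ratio, and among the rest Acod1 had the lowest ratio and Odc1 the highest. Capitals mark matches on either strand to the TATA box letters TATAAA, to the GC box letters GGGCGG and to CCAAT, which are the motifs found in them. The first lies at chr14:103046762-103047061 on the plus strand and the second at chr12:17544623-17544922 on the plus strand.
Acod1: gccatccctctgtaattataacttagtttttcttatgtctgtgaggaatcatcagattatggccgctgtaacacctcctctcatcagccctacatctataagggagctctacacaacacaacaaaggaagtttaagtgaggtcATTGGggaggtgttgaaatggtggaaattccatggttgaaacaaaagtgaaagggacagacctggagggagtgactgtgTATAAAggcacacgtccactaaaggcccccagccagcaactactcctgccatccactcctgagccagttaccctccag
Odc1: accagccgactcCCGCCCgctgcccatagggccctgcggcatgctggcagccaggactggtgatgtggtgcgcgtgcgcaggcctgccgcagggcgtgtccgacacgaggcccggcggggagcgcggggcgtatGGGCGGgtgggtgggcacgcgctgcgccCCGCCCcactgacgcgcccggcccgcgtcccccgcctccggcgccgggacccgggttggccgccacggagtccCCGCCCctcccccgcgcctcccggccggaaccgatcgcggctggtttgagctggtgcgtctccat

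The 2 promoters differ in composition. That of Acod1 is 47% G and C with 2 CpG dinucleotides, and that of Odc1 is 78.0% G and C with 42. The medians over 32851 promoters of the same length were 52.7% and 7. Acod1 has a TATAAA match from -28 to -23, which 13.6% of all promoters hold at any position, and a CCAAT match on the minus strand from -107 to -103 (37.4% of promoters). Odc1 has 4 matches to GGGCGG (35.7% hold at least 1) and none to TATAAA. Of the other 3, Sat1 has 2 GGGCGG matches. Gch1 has 2, with 1 CCAAT match, 1 TATAAA match on the minus strand and 1 kappaB match from -10 to -1 (8.46% of promoters). Ass1 has 1 GGGCGG match and 1 E-box match, CACGTG, from -36 to -31 (7.15%). The STAT motif TTCNNNGAA (8.30%), the AP-1 motif TGANTCA (7.81%) and the cAMP response motif TGACGTCA (1.79%) had no match in the 5 promoters. No 2 matches overlapped in the 2 sequences shown. These are matches of letters only, in a window that leaves out enhancers.

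The wider pathways held 87 other genes in 6 lists. Of these, 76 had a probe set of their own and 66 were detected in at least 1 group. Among the 66, 6 were higher in elicited cells by 2-fold or more and 6 were lower to that extent, against 8.04% and 11.8% of all detected genes, so both counts are near the background. Their median log2 ratio was 0.09. Over the scalings under which each gene was detected (all 5 except for Nos3 and Slc13a3), 24 kept a ratio above 0 and 12 one below 0, and 30 changed direction.

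Among genes that control and use polyamines, 11 were detected. Of these, 3 were higher by 2-fold or more (8.04% of all genes) and none was lower to that extent (11.8% of all genes), with a median of 0.37. Azin1 encodes antizyme inhibitor 1, which shields ornithine decarboxylase from antizyme. It had signals of 1628 and 4959, 3.05-fold higher, and the log2 ratios of its 3 probe sets lay between 1.18 and 1.75. Dhps encodes deoxyhypusine synthase, which uses spermidine to modify the translation factor eIF5A, and was 2.21-fold higher (683 and 1511). Mtap, which recycles the methylthioadenosine left by polyamine synthesis, was 2.04-fold higher (863 and 1757), but its 4 probe sets ranged from 0.19 to 1.03. The antizyme gene Oaz1 had a log2 ratio of 0.67 (18050 and 28781) and Oaz2 one of -0.30, which turned to 0.01 under another scaling. The oxidase gene Smox had a ratio of -0.23 and Eif5a one of 0.37, and both changed direction with the scaling. The genes Amd1, Sms, Paox and Mat2a were not analysed here.

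Among carriers of arginine and polyamines, 9 were detected. Of these, 2 were lower by 2-fold or more (11.8% of all genes) and none was higher to that extent (8.04% of all genes). Their median was 0.09. Slc7a2 encodes the cationic amino acid transporter CAT2, which brings arginine into activated macrophages. Its signals were 2793 in resident and 720 in elicited cells, 3.88-fold lower, and its 4 probe sets ranged from -1.96 to -0.98. The related Slc7a1 had a log2 ratio of 0.45 (496 and 677), with 1 of 2 probe sets at -0.04. The y+L light chain gene Slc7a7 stood at 0.09 and changed direction with the scaling, and its heavy chain gene Slc3a2 stood at 0.70. Atp13a2, a lysosomal polyamine exporter, was 2.16-fold lower (5219 and 2421), but its 3 probe sets ran from -1.11 to -0.49 and its ratio was -0.80 with equal medians, within 2-fold. Among the mitochondrial carriers, Slc25a15, the ornithine carrier, had a ratio of -0.50, with a second probe set at -1.12. Slc25a29 had a ratio of 0.86, with a second probe set at -0.51.

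Of the other arginine, nitric oxide and proline enzymes, 12 were detected. On the deposited scale 1 was lower by 2-fold or more (11.8% of all genes) and none was higher to that extent (8.04%). Their median was 0.27. Nos1, the neuronal nitric oxide synthase gene, had the highest ratio of the list at 0.73 (189 and 314), with a second probe set at 0.20, and passed 2-fold with equal medians (1.04), quantile normalization (1.20) and loess (1.16). The lower one was Aldh4a1, of proline breakdown, with signals of 181 and 87.0. Its log2 ratio was -1.06, but with the floor at the 99th percentile only a bound of -0.05 remains. Prodh, the first step of proline breakdown, had a ratio of -0.75. Oat, which turns ornithine towards proline, had 0.27 (3033 and 3670), a direction that changed on the hybridisation controls. Aldh18a1, of proline synthesis from glutamate, had 0.68, although its 3 probe sets ranged from -0.17 to 0.76. Gatm, which starts creatine synthesis from arginine, had 0.70. In the tetrahydrobiopterin branch all 4 detected genes were within 2-fold, from Pts at -0.09 to the recycling reductase gene Qdpr at 0.87. Gchfr, whose product inhibits GTP cyclohydrolase, was undetected in both groups.

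Most genes around itaconate had ratios within 2-fold. Of 16 detected, 2 were higher by 2-fold or more (8.04% of all genes) and none was lower to that extent (11.8%). Their median was 0.08. The citrate synthase gene Cs had a log2 ratio of -0.23, and the succinate dehydrogenase genes Sdha and Sdhb, whose enzyme itaconate inhibits, had 0.10 and 0.05. All 3 changed direction with the scaling, and the 3 probe sets of Sdha ran from -0.68 to 0.10. Clybl, of itaconate breakdown, had signals of 319 and 325. Idh3a (0.65), Mcee (0.59), Sucla2 (0.56) and Suclg1 (0.49) were above 0 under every scaling. The 3 probe sets of Idh3a ran from -0.53 to 0.65. On the deposited scale, 10 of the 16 genes had a log2 ratio above 0. Mpc1, a subunit of the mitochondrial pyruvate carrier, was 2.45-fold higher (6131 and 15028). Atf3, a stress factor that itaconate is known to act on, was 4.67-fold higher (2946 and 13770). Nfe2l2 and Keap1, the antioxidant factor NRF2 and its itaconate-sensitive repressor, had ratios of -0.10 and 0.13, and both changed direction with the scaling.

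**Figure D4:**
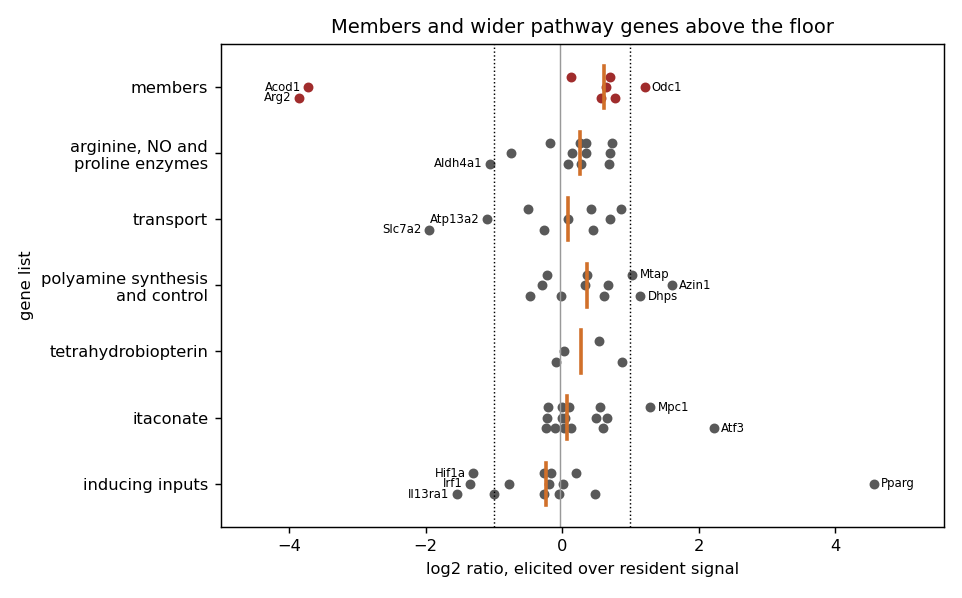
Log2 ratio (elicited over resident) of the 8 members and of the 66 detected wider pathway genes, 1 point per gene, by list, with names for genes that differ 2-fold or more. Orange bars are list medians, the grey line is the median of all genes (-0.03) and dotted lines mark 2-fold. The member median is 0.61 and the list medians run from -0.24 (inducing inputs) to 0.37 (polyamine synthesis and control).

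The last list held receptors and factors known to induce the members. Of 14 detected, 1 was higher by 2-fold or more (8.04% of all genes) and 3 were lower to that extent (11.8%). Their median was -0.24. Pparg, a lipid-sensing nuclear receptor that acts on Arg1, had signals of 85.5 and 2030 (log2 ratio 4.57). Its resident signal was under the 92.7 of the silent families on that array alone, so its size is uncertain. The interleukin-4 and interleukin-13 receptor genes were on the lower side, with Il13ra1 2.92-fold lower (1938 and 664) and Il4ra 1.99-fold lower (584 and 293). The 2 probe sets of Il4ra ran from -1.68 to -0.995 in log2 ratio, so the dimmer one passed 2-fold and the brighter did not. Stat6, which carries their signal, had 3556 and 3571. Irf1, a factor behind Nos2 and Acod1 induction by interferon gamma, was 2.56-fold lower (3134 and 1226). Hif1a, a hypoxia factor that can drive Nos2 and Arg1, was 2.48-fold lower (13212 and 5332), and its 3 probe sets ranged from -2.27 to -1.31. Rela, the p65 subunit of NF-kappaB, had a ratio of -0.78, and the interferon gamma receptor genes Ifngr1 and Ifngr2 had -0.27 and -0.05, both changing direction with the scaling.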

How the data were processed

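RNA of 2 samples, 1 resident and 1 elicited, was measured on an Affymetrix 3' expression array with 45101 probe sets. The authors deposited linear signal intensities, computed with MAS5 per the submitters' processing notes. No MAS5 version, detection call or scaling target is given in the sources used here. With 2% of probe sets trimmed at each end, the mean signal was 500.0 for both arrays, so they were scaled alike, and no further normalization was applied. Per the labels' protocols, 100 ng of total RNA went into each biotinylated cRNA.

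Probe sets were named by the platform annotation. Current symbols were taken from RefSeq (GRCm38.p6) through gene IDs, which matched 34754 of 34958 probe sets with 1 symbol. Probe sets with several genes (932) or none listed (9211) were left out. Signals under the floor were raised to it before log2 ratios were taken. The probe set brightest on average stood for its gene, and the text names members and genes of the fixed lists. Of 11499 genes above the floor on at least 1 array, 9820 were above it on both. The members and the lists were chosen with earlier results of these data known. The calculations were checked on simulated data. No test between conditions was run, since each group had 1 array. Alternatives changed the scaling, the floor, the filter and the choice of probe set. Python 3.11.15, numpy 2.4.6, pandas 2.3.3 and statsmodels 0.14.6 were used.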

Additional observations from a re-analysis of the deposited data

How the results depend on the processing

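Across 10 alternatives, the log2 ratios of the 8 measured members gave 80 values, of which 79 moved by less than the spread between probe sets (SD 0.48) and none of the ratios past 2-fold changed sign. The exception was Gch1 with the median over its probe sets (-0.56). The probe sets used for the 8 members were above the stricter floor of 174 on both arrays. The changes of floor and of filter therefore could not move these ratios. Equal medians and equal hybridisation controls moved all 8 ratios by the same amount. The count of 79 is thus not a measure of robustness. The count of members at least 2-fold higher was 3 with equal medians (Odc1, Sat1 and Srm) and 0 on the hybridisation controls, where the ratio of Odc1 was 0.84 and Ass1 passed the floor in resident cells. With equal medians, 1640 genes were at least 2-fold higher and 848 lower, and 11 wider pathway genes were higher. On the hybridisation controls these were 525, 2367 and 3. Both scalings multiply each array by 1 factor, so ratios of genes above the floor on both arrays before and after scaling all move by the same amount, and ratios against the floor move by less. No paired analysis was possible because each group had 1 array. Signals near the floor limit the size of ratios for the dimmer Arg2 probe set, Aldh4a1 and Pparg.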
